A study of Mus musculus with 12 samples.

Results

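Doxorubicin is carried out of cells by ATP-binding cassette (ABC) transporters and is changed inside them by carbonyl and flavin reductases, and the 9 genes described here encode proteins with known parts in that handling of the drug. They are the ABC transporters Abcb1a, Abcb1b, Abcc1 and Abcb8, the carbonyl-reducing enzymes Cbr1, Cbr3 and Akr1a1, the flavin reductase Por and the retinoic acid receptor Rarg. The genes were taken by name and make up 9 of the 54345 genes in the deposited table, of which 25044 had a value above 0 in at least 3 libraries and were tested. All 9 passed that filter, and 8 of them, all but Abcb1a, also passed a stricter filter of 1 FPKM in at least 3 libraries. FPKM is a fragment count divided by gene length and by the size of the library, so levels of different genes are compared per length.

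The libraries came from H9c2(2-1) cells of wild-type genotype, a cultured line that the labels describe as a myoblast and that is used widely as a heart cell model. There were 12 poly(A) RNA libraries, 3 in each of 4 groups, all collected at 6 h. The Unt libraries came from untreated cells and the DOX libraries from cells given doxorubicin. The D_MgHCF libraries came from cells given doxorubicin together with magnesium hexacyanoferrate nanocatalysts (MgHCF NCs), and the D_DXZ libraries from cells given doxorubicin together with dexrazoxane (DXZ), a clinical protectant against anthracycline damage to the heart. No group received MgHCF NCs or DXZ without doxorubicin, and the doses given to the sequenced cells are not stated in the sources used here. The labels do not say that replicates were separate cultures, so the p-values measure the spread between these libraries, which may be technical. H9c2 is known as a rat line, whereas the labels name mouse and the reads were aligned to the mouse genome. A rat read can be lost where the species differ, so levels of different genes carry that limit, which was not tested.

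The defining genes of the myoblast label were near 0 as counted on the mouse genome, where rat reads can be lost. The myogenic factors Myod1, Myf5 and Myog were at 0 in all Unt libraries and no library exceeded 0.126 FPKM for any of them. The 8 skeletal myoblast and muscle markers summed to between 1.00 and 4.84 FPKM per library, and Des, the most abundant in Unt, reached at most 1.57 FPKM. Of 8 cardiomyocyte markers, Gata4 was the only one above 1 FPKM in any library, with means of 10.3 FPKM in Unt, 3.35 in DOX, 19.2 in D_MgHCF and 2.93 in D_DXZ, while Myh6, Tnni3, Ryr2 and Actn2 were at 0 in all Unt libraries or no higher than 0.0105 FPKM. Tnnt2, cardiac troponin T, had means of 0.133 FPKM in Unt and 0.903 in DOX. The 6 fibroblast and smooth muscle markers were led by Acta2, which ran from 262 to 323 FPKM in Unt, from 1482 to 2032 in DOX, from 208 to 436 in D_MgHCF and from 1225 to 1709 in D_DXZ. The collagen gene Col1a1 had means of 20.0 FPKM in Unt and 70.6 in DOX, whereas the receptor genes Pdgfrb, at 12.2 and 8.35 FPKM, and Pdgfra, at 0.718 and 0.352 FPKM, had lower means in DOX. The remaining markers were near 0. Tagln had means of 0.0686 FPKM in Unt and 0.210 in DOX, and Thy1 did not exceed 0.0477 FPKM in any library. The part of these marker levels in the results below was not tested.

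Doxorubicin is a quinone that also has a ketone side chain, and both are sites of metabolism. Flavin reductases such as Por, the NADPH-dependent partner of microsomal cytochromes P450, can pass a single electron to the quinone, and the product can hand it on to oxygen. Carbonyl reductases (Cbr1, Cbr3) and aldo-keto reductases (Akr1a1) reduce the side chain to the alcohol doxorubicinol, which is the main circulating metabolite and is linked to damage of heart muscle. P-glycoprotein, encoded in rodents by the neighbouring genes Abcb1a and Abcb1b, and the multidrug resistance-associated protein 1, encoded by Abcc1, export anthracyclines and are known from drug-resistant tumours. Abcb8 is an ABC transporter of the mitochondrial inner membrane. Rarg, a nuclear receptor for retinoic acid, is included because variation in the human gene has been linked to heart damage after anthracycline treatment.

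The scale of the deposited values bears on every direction given here. Multiplied by gene length, 100% of the values in each library were whole multiples of a single step, within a tolerance of 0.1, so the fragments counted per gene could be recovered. These summed to between 17724150 and 18509705 per library in Unt, 17882186 and 19365119 in DOX, 16626514 and 17773368 in D_MgHCF and 17300819 and 18107499 in D_DXZ. The libraries had therefore been brought to a common median gene and not to a common total, and the summed FPKM was 216899 to 230292 in Unt against 498756 to 627769 in DOX. Among the 13266 genes with a mean of at least 1 FPKM in some group, the median difference between DOX and Unt was 0.03 on the log2(FPKM + 1) scale as deposited, -0.59 when libraries were scaled to equal summed reads and -1.08 as TPM (FPKM rescaled to the same sum in every library). For D_MgHCF against DOX it was 0.08, 0.75 and 1.13. Over all genes tested, 4649 were higher and 4973 lower in DOX than in Unt as deposited, against 2075 and 8303 per summed reads and 1111 and 10227 as TPM. In these bulk libraries fewer cells of a type and less RNA per cell cannot be told apart. A rise in DOX on the deposited scale is thus a rise relative to the median gene, and the scalings under which a called direction flips are given with it.

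**Figure D1:**
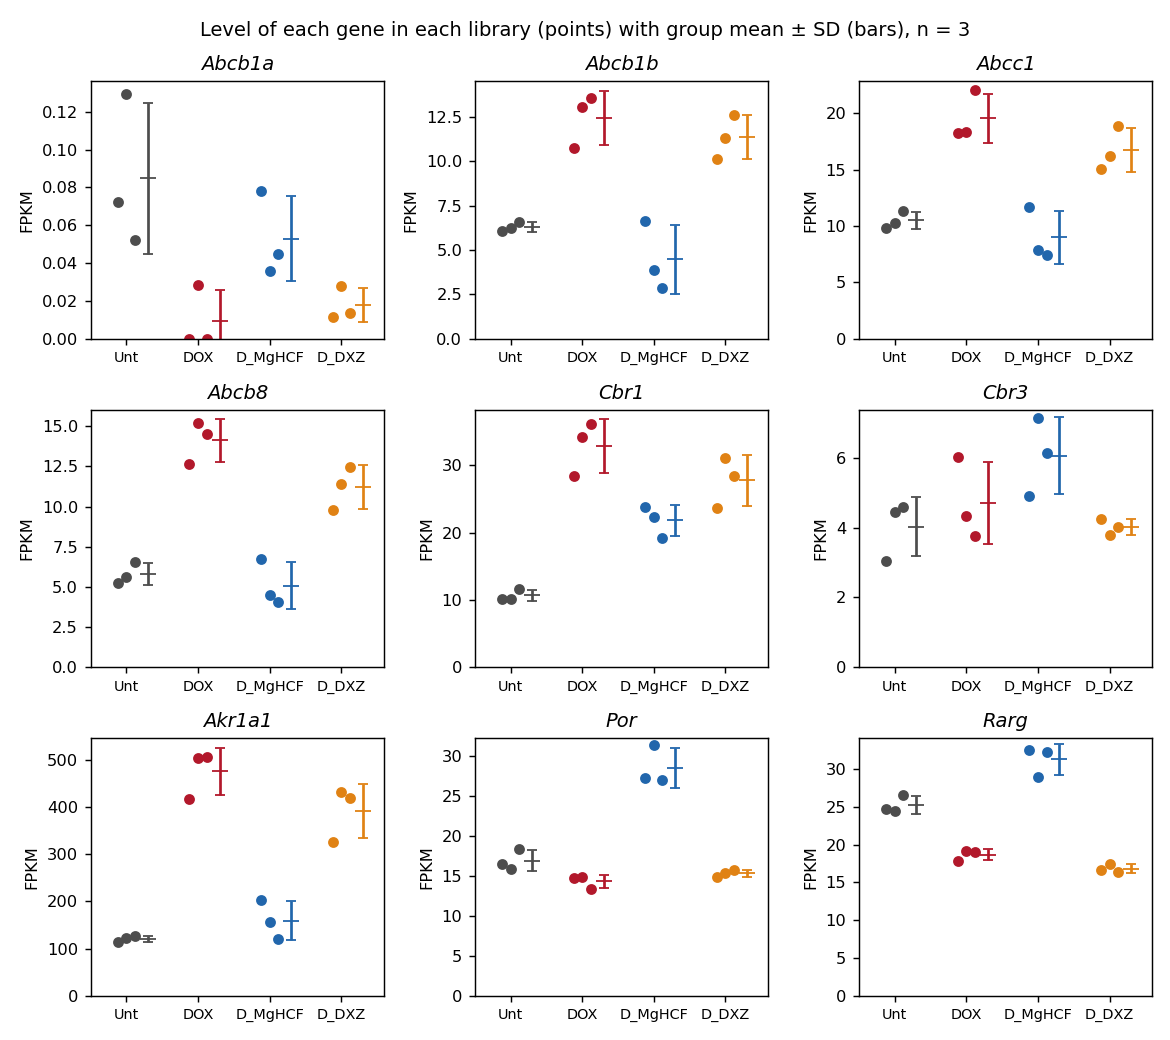
FPKM of the 9 genes (vertical axes, each starting at 0) in the 3 libraries of each group, shown as points, with the group mean and SD as bars beside them. Akr1a1, Cbr1, Abcb1b, Abcc1 and Abcb8 sat higher in DOX and D_DXZ than in Unt in every library, whereas Por and Rarg were highest in D_MgHCF. The lower SD bar of Abcb1a in DOX is cut off at 0.

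Levels spanned a wide range in untreated cells. Akr1a1, an aldehyde reductase, was the most abundant at 120.6 ± 6.82 FPKM (SD, n = 3), above 99.0% of the genes tested. Rarg followed at 25.2 ± 1.17 FPKM and Por at 16.9 ± 1.27 FPKM. Cbr1 at 10.7 ± 0.823 FPKM and Abcc1 at 10.5 ± 0.782 FPKM did not differ beyond their spread, nor did Abcb1b at 6.29 ± 0.261 FPKM and Abcb8 at 5.78 ± 0.690 FPKM. Cbr3 was at 4.03 ± 0.847 FPKM and Abcb1a at 0.0848 ± 0.0400 FPKM. The median of the genes tested was 0.519 FPKM, so Abcb1a alone among the 9 was below it. In DOX the order changed, with Cbr1 at 32.9 ± 4.02 FPKM second to Akr1a1 at 476 ± 50.5 FPKM, and Rarg at 18.7 ± 0.694 FPKM no longer apart from Abcc1 at 19.6 ± 2.20 FPKM.

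Of the 9 genes, 7 passed the test between DOX and Unt, 5 higher and 2 lower (limma, Benjamini-Hochberg adjusted p under 0.05 over all genes tested). The same test called 38.4% of all genes, 18.6% higher and 19.9% lower. Among the 12434 genes of at least 1 FPKM in 3 or more libraries 73.0% were called, 37.1% higher and 36.0% lower, beside 6 of the 8 members there, 5 higher and 1 lower. The members' share of calls was thus near that of all genes past this stricter filter. The median difference over the 9 genes was 0.84 on the log2(FPKM + 1) scale, against 0 over all genes tested. It was 0.58 after quantile normalization and 0.75 by voom. Per summed reads it was -0.05 and as TPM -0.43, against -0.07 and -0.30 over all genes tested. With a difference of at least 2-fold on the log2(FPKM + 1) scale required as well, 3 of the 9 were called (Akr1a1, Cbr1 and Abcb8), against 20.0% of all genes. The split of 5 higher and 2 lower became 2 higher and 3 lower per summed reads, 2 higher and 5 lower as TPM, 6 higher and 3 lower after quantile normalization and 5 higher and 3 lower by voom.

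**Figure D2:**
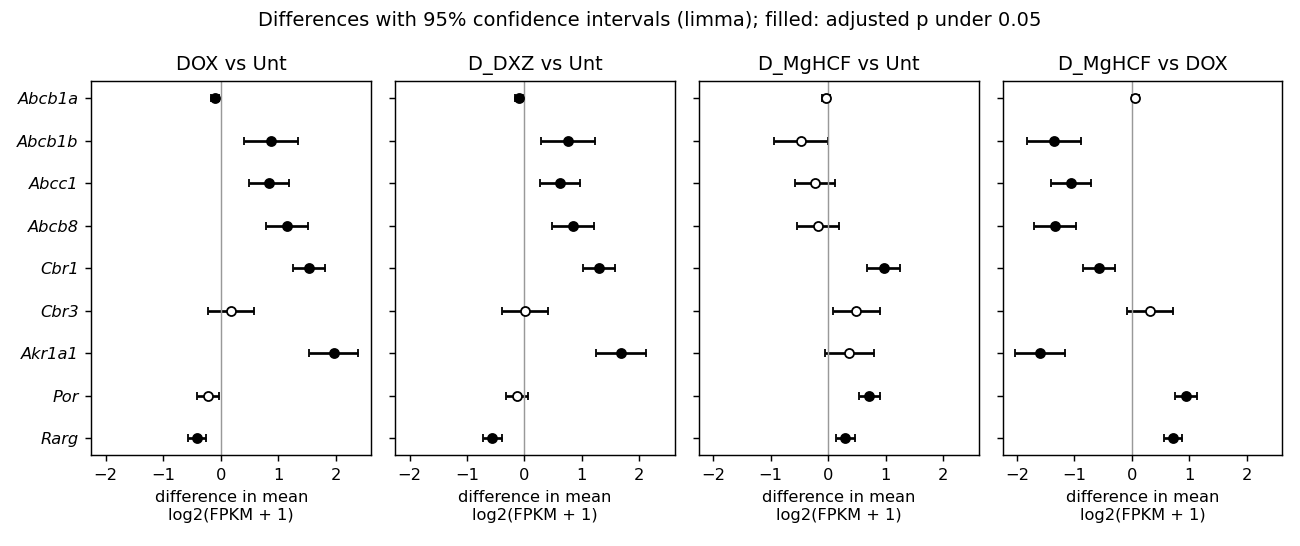
Difference in mean log2(FPKM + 1) (horizontal axis) for each gene in 4 comparisons, with 95% confidence intervals from limma. Filled points have an adjusted p under 0.05. Akr1a1 and Cbr1 lie farthest to the right in both comparisons of doxorubicin-treated with untreated cells that lack MgHCF NCs, and Por and Rarg are the 2 filled points to the right of 0 in D_MgHCF vs DOX.

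Among the enzymes that reduce the side chain, Akr1a1 and Cbr1 rose with doxorubicin. Akr1a1 was at 113, 121 and 127 FPKM in the Unt libraries and at 418, 504 and 507 FPKM in the DOX libraries. The DOX libraries all lay above the Unt libraries. Such separation describes the values of a gene and is not set against a share of all genes, here or below. The rise was 1.97 ± 0.193 (SE) on the log2(FPKM + 1) scale (limma, adjusted p = 2.67e-05). Cbr1, a carbonyl reductase of the short-chain dehydrogenase family, was at 10.2, 10.2 and 11.6 FPKM in Unt and at 28.4, 34.1 and 36.2 FPKM in DOX, again with no overlap. Its rise was 1.54 ± 0.127 (SE, limma, adjusted p = 1.36e-05). Both rises were also called under the other 4 scalings, at 0.29 to 1.84 for Akr1a1 and 0.25 to 1.48 for Cbr1. Cbr3, the neighbour of Cbr1 on chromosome 16, was at 3.06, 4.46 and 4.58 FPKM in Unt and at 6.02, 4.33 and 3.77 FPKM in DOX, and the groups overlapped. Its difference of 0.18 (95% confidence interval -0.23 to 0.58) did not pass the test as deposited (limma, adjusted p = 0.556). As TPM it was -1.05 (limma, adjusted p = 0.00883), and after quantile normalization it was called higher, at 0.58 (limma, adjusted p = 0.0304).

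In the deposited table (GRCm38) Cbr1 lies on chromosome 16 from 93607837 to 93610505 and Cbr3 from 93683215 to 93690990, 72710 bases apart on the plus strand, and Akr1a1 on chromosome 4 from 116636510 to 116651680 on the minus strand. The 3 genes start in different sequence. RefSeq windows on the GRCm38.p6 build, from 250 bases before to 50 bases after the annotated start, were found for 7 of the 9 genes and not for Abcc1 and Abcb8. All windows here and below are mouse sequence, and rat sequence was not searched. Each window was searched on both strands for the GC box GGGCGG, the CCAAT box, the TATA box TATAAA, the core of the antioxidant response element TGACNNNGC and the E-box CACGTG. These were present in 35.7%, 37.4%, 13.6%, 12.4% and 7.15% of all 32851 windows of this length. The windows of Cbr1, Cbr3 and Akr1a1 are shown because Cbr1 and Akr1a1 rose together while Cbr3 did not pass the test on the deposited scale. Capitals mark the matches.
Cbr1, chr16:93607587-93607886, plus strand: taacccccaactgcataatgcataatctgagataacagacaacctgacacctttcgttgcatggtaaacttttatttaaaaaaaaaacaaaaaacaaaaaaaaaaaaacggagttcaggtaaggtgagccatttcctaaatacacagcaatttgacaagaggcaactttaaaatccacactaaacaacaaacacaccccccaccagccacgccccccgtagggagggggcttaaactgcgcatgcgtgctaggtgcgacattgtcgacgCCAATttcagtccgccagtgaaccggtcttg
Cbr3, chr16:93682969-93683268, plus strand: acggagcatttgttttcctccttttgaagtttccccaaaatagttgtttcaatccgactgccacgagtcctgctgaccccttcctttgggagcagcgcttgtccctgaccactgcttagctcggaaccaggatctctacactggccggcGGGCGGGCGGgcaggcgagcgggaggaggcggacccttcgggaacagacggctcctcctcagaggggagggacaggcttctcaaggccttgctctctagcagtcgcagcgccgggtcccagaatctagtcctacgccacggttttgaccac
Akr1a1, chr4:116651625-116651924, minus strand: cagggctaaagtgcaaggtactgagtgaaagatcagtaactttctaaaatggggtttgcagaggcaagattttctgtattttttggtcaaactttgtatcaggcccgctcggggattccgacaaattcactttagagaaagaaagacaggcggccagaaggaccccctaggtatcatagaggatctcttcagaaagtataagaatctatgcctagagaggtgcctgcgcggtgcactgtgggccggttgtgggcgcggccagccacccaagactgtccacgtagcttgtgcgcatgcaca
The Cbr1 window, 44.0% G and C, held a single CCAAT match, 19 bases after the annotated start. The Cbr3 window, 60.0% G and C, held 2 overlapping GC boxes and no CCAAT box. The Akr1a1 window, 50.0% G and C, held none of the 5 motifs. No motif was shared by Cbr1 and Akr1a1.

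The exporter genes Abcb1b and Abcc1 and the mitochondrial transporter gene Abcb8 rose on the deposited scale, and their rises were not called per summed reads. Abcb1b was at 6.05, 6.25 and 6.57 FPKM in Unt and at 10.7, 13.0 and 13.5 FPKM in DOX. Abcc1 was at 9.85, 10.3 and 11.4 FPKM in Unt and at 18.2, 18.3 and 22.1 FPKM in DOX. Abcb8 was at 5.21, 5.58 and 6.55 FPKM in Unt and at 12.6, 15.2 and 14.5 FPKM in DOX. The rises were 0.88 ± 0.210 for Abcb1b, 0.84 ± 0.156 for Abcc1 and 1.16 ± 0.163 for Abcb8 (SE, limma, adjusted p = 0.00646, 0.00138 and 0.000221). Abcc1 lies on chromosome 16 from 14361558 to 14475737 and Abcb8 on chromosome 5 from 24393663 to 24410054. The reads behind these rises moved less. Abcb1b had 1197 to 1282 reads in the Unt libraries and 1252 to 1336 in the DOX libraries, which is 67.9 ± 1.26 and 69.1 ± 1.69 RPM (reads scaled to a common total; SD, n = 3). Abcc1 had 214 ± 11.1 and 206 ± 16.9 on the same scale. Abcb8 had 36.9 ± 3.56 and 46.6 ± 1.99, and its DOX libraries all lay above those of Unt. Per summed reads the differences were 0.02 for Abcb1b, -0.05 for Abcc1 and 0.30 for Abcb8, none called, and as TPM they were -0.38, -0.46 and -0.07, with Abcc1 called lower (limma, adjusted p = 0.00603). After quantile normalization all 3 were called higher, at 0.99, 0.68 and 1.25, and by voom at 0.83, 0.75 and 1.15.

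Por and Rarg lay on the other side. Por was at 16.5, 15.9 and 18.3 FPKM in Unt and at 14.7, 14.9 and 13.4 FPKM in DOX, without overlap. The difference of -0.22 ± 0.0850 (SE) missed the threshold as deposited (limma, adjusted p = 0.0623) and passed it under the other 4 scalings, at -0.37 to -1.57. Rarg was at 24.7, 24.4 and 26.6 FPKM in Unt and at 17.9, 19.1 and 19.0 FPKM in DOX, also without overlap. It fell by 0.41 ± 0.0723 (SE, limma, adjusted p = 0.000891), and it was called lower under the other 4 scalings as well, by -0.57 to -1.77.

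**Figure D3:**
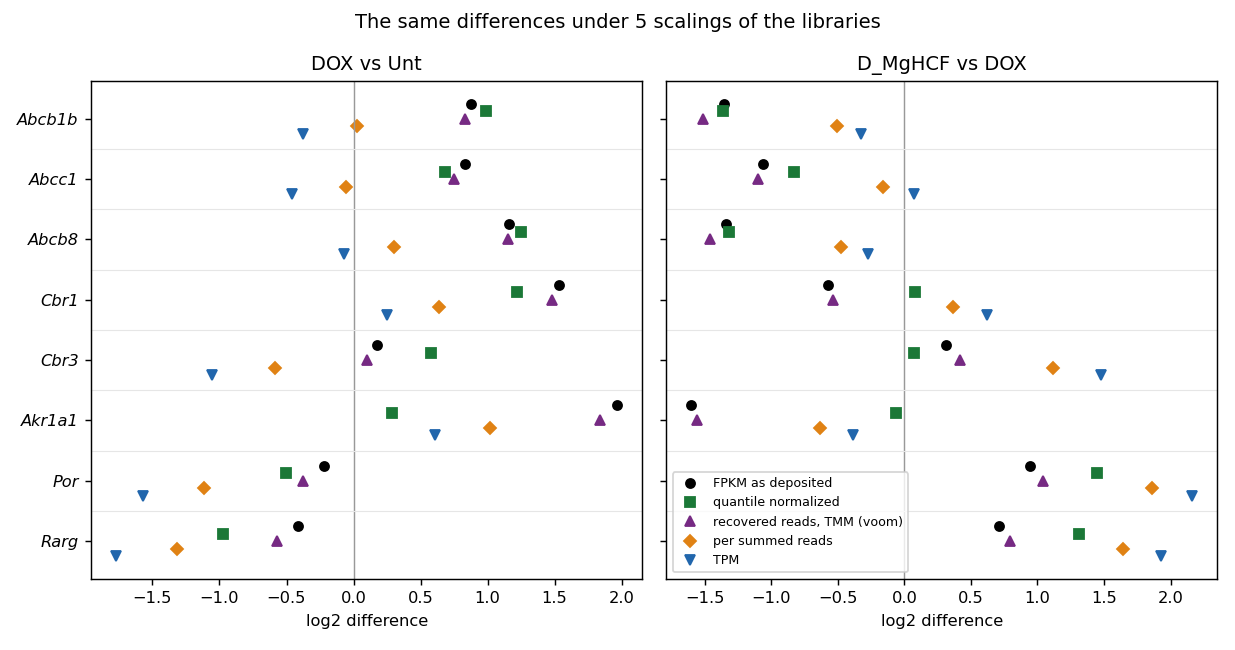
Log2 difference (horizontal axis) of each gene except Abcb1a in DOX vs Unt and in D_MgHCF vs DOX under the deposited FPKM scale, quantile normalization, TMM-scaled recovered reads (voom), equal summed reads and TPM. All 5 symbols of Akr1a1 and Cbr1 lie to the right of 0 and all 5 of Por and Rarg to the left in DOX vs Unt, while Abcb1b, Abcc1, Abcb8 and Cbr3 cross 0.

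Abcb1a, the second gene of P-glycoprotein in rodents, was near the limit of detection. It had 10, 17 and 7 reads in the Unt libraries, 0, 2 and 0 in DOX, 9, 5 and 6 in D_MgHCF and 1, 2 and 1 in D_DXZ. Summed over libraries this was 34 reads in Unt and 2 in DOX, a ratio per total reads of 0.0569 with an exact 95% interval of 0.00662 to 0.222 that covers counting error only. The difference in DOX was -0.10 ± 0.0296 (SE) on the log2(FPKM + 1) scale, which compresses such low values (limma, adjusted p = 0.0172). It was not called without Unt replicate 2, DOX replicate 1 or DOX replicate 3 (limma, adjusted p = 0.0547 to 0.0644). D_MgHCF had 20 reads, a ratio to Unt of 0.619 (0.338 to 1.11), and D_DXZ had 4, a ratio of 0.120 (0.0310 to 0.337). Between D_MgHCF and DOX the difference of 0.06 was not called as deposited (limma, adjusted p = 0.111) and was called per summed reads, as TPM and by voom (limma, adjusted p = 0.0433, 0.0282 and 0.0158). Abcb1b had 3695 reads in Unt, so Abcb1a made up 0.912% of the reads of both genes there (exact 95% interval 0.632% to 1.27%) and 0.0514% in DOX (0.00623% to 0.186%).

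The 2 genes lie 49572 bases apart on chromosome 5 of GRCm38, Abcb1a at 8660077 to 8748575 and Abcb1b at 8798147 to 8866315, both on the plus strand. Their longest mouse transcripts in GENCODE M21 share an identical run of 338 bases, longer than a read of 150 bases, and align at 87.7% identity over 4002 bases. Reads from that run cannot be assigned to either gene, and Abcb4 and the unclassified Gm42686 also share stretches of over 95% identity with both, so the split between them is uncertain. The exons of Abcb1a further overlap those of Gm42686 on the opposite strand by 553 bases, and those of Abcb1b overlap the antisense gene Gm5106 by 143 bases. It is not stated whether counting used strand, so the few reads of Abcb1a cannot be told apart from reads of Gm42686 there. The Abcb1b window is printed because this gene carries nearly all reads of the pair, with GC box and CCAAT box matches in capitals.
Abcb1b, chr5:8797897-8798196, plus strand: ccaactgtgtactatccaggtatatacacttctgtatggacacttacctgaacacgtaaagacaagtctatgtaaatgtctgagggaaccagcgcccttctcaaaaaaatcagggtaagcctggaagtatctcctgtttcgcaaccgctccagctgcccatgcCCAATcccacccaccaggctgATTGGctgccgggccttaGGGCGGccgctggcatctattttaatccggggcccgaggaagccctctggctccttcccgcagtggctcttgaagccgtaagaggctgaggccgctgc
It held 2 CCAAT matches on opposite strands, 87 and 66 bases before the start, and a GC box at 48 bases before it. The RefSeq window of Abcb1a lies 92986 bases from the gene start used in the deposited table and is not shown.

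With dexrazoxane, none of the genes passed the test against doxorubicin alone. Between D_DXZ and DOX, 0 of the 9 genes and 0 of all 25044 genes passed (limma, smallest adjusted p = 0.0870), and voom on the recovered reads also called 0. Of all genes, 6 were called with a pseudocount of 0.1, 3 after quantile normalization, 3 with no filter, 2 at 1 FPKM in 3 libraries and 0 to 6 when a library was left out, and none of these fits called any of the 9. At an unadjusted p under 0.05, 0 of the 9 genes were called, against 9.54% of all genes. The differences of the 9 genes ran from -0.31 for Abcb8 (95% confidence interval -0.67 to 0.05) to 0.09 for Por (-0.10 to 0.28), and that of Akr1a1, which was at 326, 432 and 419 FPKM in D_DXZ, was -0.28 (-0.71 to 0.15). Those intervals do not show the groups to be alike. Rarg was at 16.7, 17.4 and 16.3 FPKM in D_DXZ.

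Against untreated cells, D_DXZ gave 7 calls among the 9 genes, 5 higher and 2 lower, where the test called 33.9% of all genes, 15.9% higher and 18.0% lower. At 1 FPKM in 3 libraries it called 6 of 8, against 67.6% of all such genes. The split became 2 higher and 3 lower per summed reads and 1 higher and 5 lower as TPM. Over all genes tested it was 1913 and 7946 per summed reads and 913 and 10083 as TPM. The Unt libraries are shared with the comparison of DOX and Unt. Akr1a1 rose by 1.68, Cbr1 by 1.30, Abcb8 by 0.85, Abcb1b by 0.75 and Abcc1 by 0.62, and Rarg fell by 0.56 (limma, adjusted p = 0.000133, 7.12e-05, 0.00217, 0.0170, 0.00983 and 0.000239). The rises of Abcb1b, Abcc1 and Abcb8 were not called per summed reads, at 0.07, -0.09 and 0.17. As TPM all 3 turned negative, at -0.33, -0.51 and -0.22, and Abcc1 was called lower (limma, adjusted p = 0.00349), while the rise of Cbr1 was not called, at 0.18. That of Abcb1b was also not called without Unt replicate 1 or D_DXZ replicate 3 (limma, adjusted p = 0.0540 and 0.0659). Abcb1a was the second gene called lower, on 4 reads, and lost its call without any of 5 single libraries, namely Unt replicates 1 and 2 and the 3 D_DXZ libraries (limma, adjusted p = 0.0589 to 0.129). With the 2-fold requirement, Akr1a1 and Cbr1 made 2 calls, against 15.0% of all genes.

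With MgHCF NCs, most of the genes differed from doxorubicin alone. Between D_MgHCF and DOX, 7 of the 9 genes passed, 2 higher and 5 lower, where the test called 51.5% of all genes, 31.4% higher and 20.1% lower. At 1 FPKM in 3 libraries it called 7 of 8, 2 higher and 5 lower, against 75.1% of all such genes, 35.9% higher and 39.2% lower. The median difference over the 9 genes was -0.57 against 0.07 over all genes tested. It was -0.54 by voom and -0.009 after quantile normalization. Per summed reads it was 0.09 and as TPM 0.25, against 0.25 and 0.56 over all genes tested. With the 2-fold requirement, 4 of the 9 were called, all lower, against 22.8% of all genes. The split became 5 higher and 3 lower per summed reads, 5 higher and 1 lower as TPM and 2 higher and 3 lower after quantile normalization. Over all genes tested it was 12376 and 2401, 13504 and 1691, and 4626 and 4914 under these scalings. These libraries share the DOX samples with the comparison of DOX and Unt, so a gene that was high in DOX enters both.

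Por and Rarg were the genes that rose under every scaling. Por was at 27.2, 31.4 and 27.0 FPKM in D_MgHCF, against 14.7, 14.9 and 13.4 FPKM in DOX, and no library of another group reached the D_MgHCF libraries. It rose by 0.94 ± 0.0850 on the log2(FPKM + 1) scale (SE, limma, adjusted p = 1.42e-05), with 1.04 to 2.16 under the other 4 scalings. Rarg was at 32.5, 29.0 and 32.3 FPKM in D_MgHCF against 17.9, 19.1 and 19.0 FPKM in DOX, and again D_MgHCF stood above all other groups. It rose by 0.71 ± 0.0723 (SE, limma, adjusted p = 2.63e-05), with 0.79 to 1.93 under the other 4 scalings. Both were also higher than in Unt, Por by 0.72 (limma, adjusted p = 0.000175) and Rarg by 0.30 (limma, adjusted p = 0.00885), though the difference for Rarg was not called as TPM, by voom or when only the 2 groups were fitted, at 0.16, 0.22 and 0.30.

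Por lies on chromosome 5 from 135670033 to 135735326 on the plus strand and Rarg on chromosome 15 from 102234938 to 102257517 on the minus strand. Their mouse windows are shown because these genes rose together. Capitals mark the GC box in both orientations.
Por, chr5:135688895-135689194, plus strand: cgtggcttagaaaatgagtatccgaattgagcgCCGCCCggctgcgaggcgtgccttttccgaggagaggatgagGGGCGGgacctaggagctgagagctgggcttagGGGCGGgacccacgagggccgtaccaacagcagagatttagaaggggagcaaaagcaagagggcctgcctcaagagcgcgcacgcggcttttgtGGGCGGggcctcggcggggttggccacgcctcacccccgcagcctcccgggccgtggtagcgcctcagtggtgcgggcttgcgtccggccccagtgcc
Rarg, chr15:102257473-102257772, minus strand: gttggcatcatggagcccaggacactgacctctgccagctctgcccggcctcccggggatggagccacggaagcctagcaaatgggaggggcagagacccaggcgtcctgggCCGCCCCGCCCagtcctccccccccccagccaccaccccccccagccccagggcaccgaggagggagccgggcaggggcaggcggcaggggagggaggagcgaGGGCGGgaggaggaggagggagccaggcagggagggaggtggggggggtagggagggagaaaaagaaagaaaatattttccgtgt
The Por window, 67.3% G and C, held 4 GC boxes and the first Rarg window, 70.0% G and C, held 3, of which 2 overlap. Their G and C content was above that of 86.2% and 90.4% of all windows, whose median was 52.7%. Neither held any of the other 4 motifs. The RefSeq start of Por lies 19112 bases from the gene start in the deposited table, and a second RefSeq window of Rarg, 11017 bases from the deposited start, held no GC box. A match describes these letters and not a site that is bound.

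The transporters and reductases that were high in DOX were lower in D_MgHCF. Akr1a1 was at 204, 155 and 119 FPKM in D_MgHCF, below all DOX libraries and overlapping those of Unt. It fell by 1.60 ± 0.193 (SE, limma, adjusted p = 7.53e-05) and was called lower under the other scalings except quantile normalization, at -0.06. Abcb1b was at 6.65, 3.88 and 2.86 FPKM, with 1117, 789 and 560 reads, and fell by 1.35 ± 0.210 against DOX (SE, limma, adjusted p = 0.000376). Abcb8 was at 6.72, 4.47 and 4.03 FPKM and fell by 1.34 ± 0.163, and Abcc1 was at 11.7, 7.90 and 7.40 FPKM and fell by 1.06 ± 0.156 (SE, limma, adjusted p = 7.92e-05 and 0.000260). Per summed reads, Abcb1b and Abcb8 were still called lower, at -0.51 and -0.48 (limma, adjusted p = 0.0313 and 0.00793), and Abcc1 was not, at -0.16. As TPM none of the 3 was called, at -0.32, -0.28 and 0.07.

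For Cbr1, unlike Akr1a1, the direction against DOX turned with the scale. It was at 23.8, 22.4 and 19.3 FPKM in D_MgHCF, below all DOX libraries and above all Unt libraries. On the deposited scale it fell by 0.57 ± 0.127 against DOX (SE, limma, adjusted p = 0.00376), and by voom it was also called lower. Per summed reads it was higher by 0.36 and as TPM by 0.62 (limma, adjusted p = 0.00268 and 9.80e-05). After quantile normalization it was at 0.08 and not called. Its recovered reads were 28.3 ± 0.702 RPM in DOX and 36.9 ± 2.96 RPM in D_MgHCF (SD, n = 3), so the direction rests on the scale. Against Unt it rose by 0.97 (limma, adjusted p = 0.000321) and under the other 4 scalings by 0.87 to 1.30. Cbr3 was at 4.92, 7.15 and 6.13 FPKM in D_MgHCF. It differed from DOX by 0.32 (95% confidence interval -0.09 to 0.72) and did not pass the test as deposited (limma, adjusted p = 0.170), while per summed reads and as TPM it was called higher, at 1.12 and 1.48.

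Compared with untreated cells, D_MgHCF gave 3 calls among the 9 genes, all higher (Cbr1, Por and Rarg), where the test called 40.1% of all genes, 24.3% higher and 15.7% lower. At 1 FPKM in 3 libraries it called 4 of 8, Cbr3 being the fourth, against 54.5% of all such genes. None of the 3 reached a 2-fold difference on the log2(FPKM + 1) scale, against 11.2% of all genes, although the ratio of mean FPKM was 2.05 for Cbr1. The split became 2 higher and 3 lower as TPM, 5 and 1 after quantile normalization, 4 and 1 per summed reads and 2 and 1 by voom. Over all genes tested it was 6652 and 4814, 4252 and 4627, 7331 and 4138, and 6672 and 4698 under these scalings. Abcb1b, at -0.48 and not called as deposited, was called lower as TPM, by voom and per summed reads, at -0.70, -0.68 and -0.49 (limma, adjusted p = 0.00627, 0.0206 and 0.0470). Abcc1 and Abcb8 were called lower as TPM, at -0.39 and -0.35 (limma, adjusted p = 0.0176 and 0.0311). The count rested in part on D_MgHCF replicate 1, in which Abcb1b, Abcc1, Abcb8, Akr1a1 and Cbr1 were higher than in the other 2 libraries of the group. Without it, 6 of the 9 were called, with Abcb1b lower at -0.75, Abcc1 lower at -0.41 and Cbr3 higher at 0.61 (limma, adjusted p = 0.00340, 0.0270 and 0.0345). Akr1a1, at 0.37 and not called (limma, adjusted p = 0.156), was called higher, at 0.56, when D_MgHCF replicate 3 was left out (limma, adjusted p = 0.0199), and also per summed reads and after quantile normalization, at 0.39 and 0.23.

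Between the treatments given with doxorubicin, D_MgHCF and D_DXZ, 7 of the 9 genes passed, 3 higher and 4 lower, where the test called 48.4% of all genes, 29.4% higher and 19.0% lower. At 1 FPKM in 3 libraries it called 7 of 8, against 70.3% of all such genes. The split became 4 higher and 3 lower per summed reads and 5 higher and 1 lower as TPM. Over all genes tested it was 11426 and 2382 per summed reads and 12801 and 1559 as TPM. Por was higher in D_MgHCF by 0.85 and Rarg by 0.86, and Akr1a1 was lower by -1.32, Abcb1b by -1.23, Abcb8 by -1.03 and Abcc1 by -0.85 (limma, adjusted p = 3.16e-05, 1.46e-05, 0.000315, 0.000812, 0.000508 and 0.00130). Cbr3 was higher by 0.48 (limma, adjusted p = 0.0484), a call lost without any of 8 single libraries (limma, adjusted p = 0.0580 to 0.157). With the 2-fold requirement 3 of the 9 were called, all lower, against 19.4% of all genes. Por and Rarg were called higher under all 5 scalings, whereas as TPM Abcb1b, Abcc1 and Abcb8 were not called, at -0.37, 0.12 and -0.13, and after quantile normalization Akr1a1 was not, at -0.03. Cbr1, at -0.33 and not called as deposited (limma, adjusted p = 0.0534), was called higher per summed reads and as TPM, at 0.42 and 0.69 (limma, adjusted p = 0.00128 and 5.76e-05). On the deposited scale it was called lower when DOX replicate 1, D_MgHCF replicate 1 or D_DXZ replicate 1 was left out, at -0.33, -0.39 and -0.44 (limma, adjusted p = 0.0425, 0.0451 and 0.0216).

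Ratios between genes of the same library, given here on the deposited scale, do not change when a library is multiplied by a single factor, as for summed reads or TPM. Quantile normalization does change them, and under it DOX differed from Unt by 0.29 for Akr1a1 and by 1.22 for Cbr1, against 1.97 and 1.54 as deposited. With 3 libraries against 3 an exact permutation test cannot give a two-sided p below 0.1, so the ratios are given as values. Cbr1 over Cbr3 was between 2.29 and 3.33 in Unt, 4.72 and 9.61 in DOX, 5.60 and 8.24 in D_DXZ and 3.13 and 4.84 in D_MgHCF. The DOX and D_DXZ libraries lay above the Unt libraries, while D_MgHCF overlapped both Unt and DOX. Akr1a1 over Por was between 6.86 and 7.64 in Unt, 28.4 and 37.8 in DOX, 21.9 and 28.1 in D_DXZ and 4.42 and 7.49 in D_MgHCF, so this ratio separated the libraries into those of DOX and D_DXZ and those of Unt and D_MgHCF. Akr1a1 over Cbr1 rose from between 10.9 and 11.9 in Unt to between 14.0 and 14.7 in DOX and was lowest in D_MgHCF, between 6.19 and 8.55. Abcc1 over Abcb1b was between 1.63 and 1.73 in Unt and between 1.41 and 1.70 in DOX, and in D_MgHCF it lay between 1.75 and 2.59, above all other libraries.

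**Figure D4:**
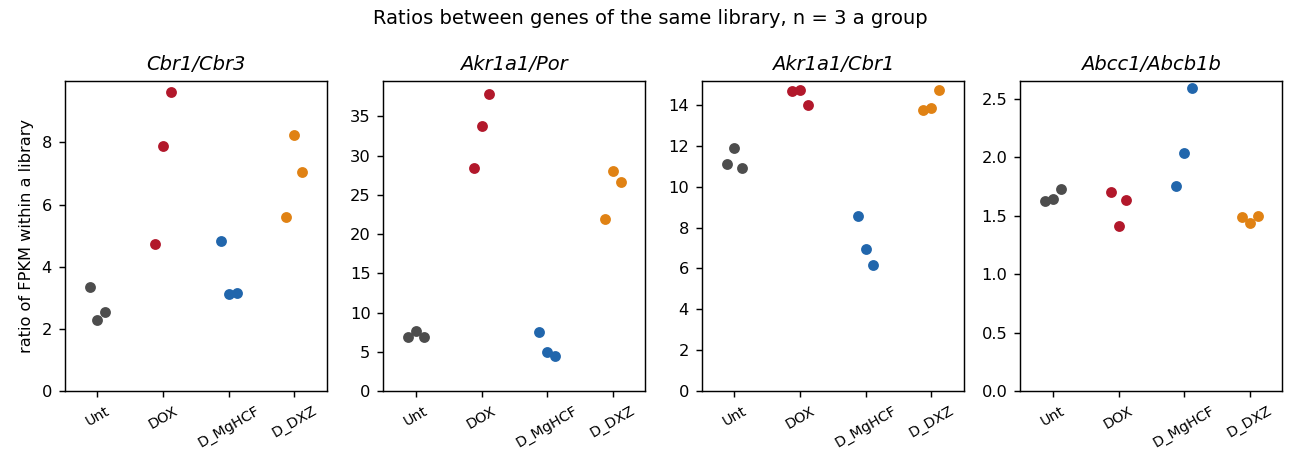
Ratio of deposited FPKM values of 2 genes in the same library (vertical axes, starting at 0), with 3 libraries a group as points. The ratio of Akr1a1 to Por is at least 21.9 in every DOX and D_DXZ library and at most 7.64 in every Unt and D_MgHCF library, and the ratio of Akr1a1 to Cbr1 is lowest in D_MgHCF.

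Across the 12 libraries the genes formed groups on the log2(FPKM + 1) scale, described here without a test because the libraries share 4 groups and the scaling. Abcb1b, Abcc1 and Abcb8 had Pearson correlations of 0.97 to 0.99 with each other, and Akr1a1 correlated with them at 0.89 to 0.96. Por and Rarg correlated at 0.845 with each other and negatively with the 3 transporters, at -0.75 to -0.88. Cbr1 correlated with Akr1a1 at 0.89 and with Cbr3 at 0.11. Among 11079 other named genes of at least 1 FPKM, the gene most like Abcb1b was Tenm3 (r = 0.998), and that most like Akr1a1 was Ssr2 (r = 0.999), with 1049 genes above 0.95. The nearest gene was Rps14 for Abcb8 (r = 0.994), Sorcs2 for Abcc1 (r = 0.990), Sdc1 for Cbr1 (r = 0.996), Tmem206 for Por (r = 0.985) and Mmp28 for Rarg (r = 0.976). Cbr3 stood apart, with BC022687 nearest (r = 0.833) and 0 genes above 0.95.

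A wider list of 96 genes of the same pathways, in 8 groups, put these genes beside their relatives. Of the list, 85 genes were tested and 47 were called between DOX and Unt, 33 higher and 14 lower. That is 55.3% of the list, where 38.4% of all genes were called, 18.6% higher and 19.9% lower. At 1 FPKM in 3 libraries 48 of 60 were called, against 73.0% of all such genes, 37.1% higher and 36.0% lower. Sublists made up mostly of expressed genes, as the reductases and conjugating enzymes, are to be read against these larger shares. The split of the list became 22 and 26 per summed reads and 13 and 31 as TPM. Over all genes tested it was 2075 and 8303 per summed reads and 1111 and 10227 as TPM. The other carbonyl and aldo-keto reductases had 9 of 14 tested genes higher and 0 lower, with a median difference of 0.84 against 0 over all genes tested. Their split became 6 higher and 2 lower per summed reads and 3 and 3 as TPM, with medians of 0.23 and -0.13. Cbr2, a carbonyl reductase, was at 76.4, 76.4 and 85.0 FPKM in Unt and at 336, 464 and 454 FPKM in DOX, a rise of 2.37 (limma, adjusted p = 2.32e-05). Akr1b3, an aldose reductase, was at 7.16, 8.16 and 8.91 FPKM in Unt and at 38.5, 43.1 and 42.0 FPKM in DOX, a rise of 2.22 (limma, adjusted p = 0.000156). These were the largest rises of the list, and both were called under all 5 scalings. The conjugating enzymes, mostly glutathione transferases, had 7 of 9 tested genes higher and 0 lower under all 5 scalings, with a median of 1.96 as deposited.

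The other quinone and flavin reductases had 8 of 15 higher and 4 lower in DOX, against 5 and 4 per summed reads and 2 and 6 as TPM. Mtrr, the flavoprotein that reactivates methionine synthase, was at 8.44, 8.87 and 9.10 FPKM in Unt and at 1.79, 1.72 and 1.76 FPKM in DOX, and fell by 1.83 (limma, adjusted p = 2.99e-05). Of 10 genes whose proteins accept electrons from Por, 2 were higher and 3 lower, with 2 and 7 per summed reads. Sqle, the squalene epoxidase of sterol synthesis, was at 57.6, 60.2 and 61.1 FPKM in Unt and at 15.9, 12.6 and 10.2 FPKM in DOX, and fell by 2.15 (limma, adjusted p = 2.19e-05), the largest fall of the list. Mtrr and Sqle were lower under all 5 scalings. Among the other exporters and drug-sequestering genes 3 of 10 were higher and 1 lower, with 1 and 4 per summed reads, and among uptake transporters 2 of 8 were higher, with 0 per summed reads. The retinoid receptors and retinoic acid handling genes had 0 of 16 higher and 6 lower, with 8 lower per summed reads and as TPM and 1 higher and 6 lower by quantile normalization and voom. Chosen after their values were seen, the receptors Rara, Rxra and Rxrb were among the 6, at 6.97, 10.5 and 21.4 FPKM in Unt and 3.07, 3.53 and 7.42 FPKM in DOX.

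In D_DXZ against Unt the list gave 42 calls (49.4%, against 33.9% of all genes), and against DOX it gave 0, as did all genes. Between D_MgHCF and DOX it gave 61 calls (71.8%, against 51.5% of all genes), 28 higher and 33 lower, where 31.4% of all genes were higher and 20.1% lower. The split became 42 and 17 per summed reads and 47 and 11 as TPM. Over all genes tested it was 12376 and 2401 per summed reads and 13504 and 1691 as TPM, so all genes shifted the same way. Of the 56 list genes with a mean of at least 1 FPKM over the 12 libraries, 17 were higher and 31 lower, so 11 of the 28 higher calls were of genes below that mean. The retinoid group had 9 genes at or above it, 7 higher and 1 lower, where 33.7% of all genes at that level were higher and 40.3% lower. Under the other scalings 7 to 9 were higher and 0 or 1 lower. The 9 higher and 0 lower were per summed reads and as TPM, where most calls over all genes tested were higher too. A further 4 retinoid genes, with a mean under 1 FPKM over the 12 libraries, were called higher (Crabp1, Aldh1a1, Aldh1a3 and Cyp26a1, named after their values were seen). Their means were 0.142 to 0.689 FPKM in D_MgHCF. Such calls were general. Of all genes tested 7863 were higher and 5027 lower, against 3840 and 4590 of those at or above that mean, so most calls below it were higher. Values above 0 were found for 23368 to 25456 genes per D_MgHCF library and 18530 to 20381 per DOX library. Crabp1 was at 0 in all Unt and DOX libraries and passed the filter through D_MgHCF, where it was above 0 in every library. Cyp26b1, which clears retinoic acid, was at 14.8, 7.23 and 1.34 FPKM in D_MgHCF and at 0.899, 0.524 and 0.323 FPKM in DOX, a rise of 2.10 with a wide spread between libraries (limma, adjusted p = 0.00730). Hmox1, the haem oxygenase that takes electrons from Por, was at 24.9, 47.6 and 94.8 FPKM in D_MgHCF, at 16.7, 10.6 and 6.81 FPKM in DOX and at 33.2, 39.0 and 40.2 FPKM in Unt. It rose by 2.08 against DOX (limma, adjusted p = 0.00288). The carbonyl and aldo-keto reductases had 0 higher and 10 lower, against 2 and 5 per summed reads and 4 and 4 as TPM. Nqo2, a quinone reductase, was at 4.24, 3.26 and 2.37 FPKM in D_MgHCF and at 14.0, 15.5 and 16.4 FPKM in DOX, a fall of 1.95 (limma, adjusted p = 1.44e-05). Cyp26b1, Hmox1 and Nqo2 were called in the same direction under all 5 scalings. Against Unt, D_MgHCF gave 47 calls in the list (55.3%, against 40.1% of all genes) and against D_DXZ 53 (62.4%, against 48.4%). At 1 FPKM in 3 libraries the list's calls were 43 of 60 in D_DXZ against Unt, 52 of 60 in D_MgHCF against DOX, 38 of 60 in D_MgHCF against Unt and 45 of 60 in D_MgHCF against D_DXZ, where 67.6%, 75.1%, 54.5% and 70.3% of all such genes were called.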

How the data were processed

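RNA was extracted with TRIzol from 3 libraries a group of H9c2(2-1) cells, and poly(A) libraries were sequenced in pairs of 150 bp. The submitters' processing notes name HISAT2 2.0.5 and the GRCm38 (mm10) mouse genome; the counting tool and annotation are not given in the sources used here. The authors deposited a table of FPKM per gene, and 0 of its columns of values were left unused. Gene coordinates are those of the deposited table, and those of 8 of the 9 genes equal GENCODE M21.

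Groups follow the labels. The D_MgHCF columns were matched through the sample titles and the treatment protocol, since the sample descriptions call these libraries D_MgPB. FPKM was tested as log2(FPKM + 1) with limma 3.58.1 in R 4.3.3 (trended variance, 4 groups in 1 fit, Benjamini-Hochberg over 25044 genes above 0 FPKM in at least 3 libraries). Whole reads were recovered from the FPKM steps and used for depth, for voom and for scaling to summed reads. That scaling and the count of list genes with a mean of at least 1 FPKM were added after the data were seen. The 9 genes, the pathway lists and the markers were chosen with earlier results of these data known. The text gives all 9 genes in every Unt, DOX and D_MgHCF library, and Akr1a1, Rarg and Abcb1a in the D_DXZ libraries. For the wider list the rule covered called genes of at least 1 FPKM, in DOX vs Unt and in D_MgHCF vs DOX. It named the 2 largest rises and 2 largest falls of each. For each of the 9 of at least 1 FPKM, it named the gene with the highest Pearson r over the 12 libraries. Rara, Rxra, Rxrb, Crabp1, Aldh1a1, Aldh1a3 and Cyp26a1 fall outside this rule and were named after their values were seen. A gene that this rule names is not reported here. On simulated data for DOX vs Unt with 25044 genes, the fit recovered 95 of 100 genes changed by 2 on the log2 scale and 54 of 100 changed by 1, and called 22 unchanged genes. The simulated libraries were drawn from the Unt means with the same dispersion for every gene, and few genes were changed. These rates do not carry over to the real comparisons, where far more genes were called. Depth was 16626514 to 19365119 reads a library; intervals on reads cover counting error only. Alternatives were the pseudocount, the filter, the call rule, the samples fitted, TPM, quantile normalization, a replicate block and leaving out each library. Sequences are from RefSeq (GRCm38.p6), and transcripts of the 9 genes were aligned with BLAST 2.17.0.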

Additional observations from a re-analysis of the deposited data

How the results depend on the processing

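Of the 54 differences (9 genes in 6 comparisons), those that changed direction with a call in at least 1 of the fits did so under library scalings, and the cause was not tested. As TPM, Abcb1b became -0.38 in DOX vs Unt and -0.33 in D_DXZ vs Unt. Abcc1 became -0.46 and -0.51 in those comparisons, 0.071 in D_MgHCF vs DOX and 0.12 in D_MgHCF vs D_DXZ. Abcb8 became -0.074 and -0.22 in the comparisons with Unt, and Cbr3 -1.05 and -1.08. Cbr1 became 0.62 in D_MgHCF vs DOX and 0.69 in D_MgHCF vs D_DXZ. Per summed reads, Abcc1 became -0.053 and -0.088 in DOX and D_DXZ vs Unt, and Cbr1 0.36 and 0.42 in D_MgHCF vs DOX and vs D_DXZ. After quantile normalization, Cbr1 became 0.083 in D_MgHCF vs DOX. A further 10 sign changes under scalings were of differences not called in either fit, of Abcb1a in D_MgHCF vs DOX and vs D_DXZ, Abcb1b and Rarg in D_DXZ vs DOX, Cbr1 in D_MgHCF vs D_DXZ and Cbr3 in DOX and D_DXZ vs Unt.

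With at least a 2-fold difference on the log2(FPKM + 1) scale required, the genes called were 3 in DOX vs Unt, 2 in D_DXZ vs Unt, 0 in D_MgHCF vs Unt (where the ratio of mean FPKM was 2.05 for Cbr1), 4 in D_MgHCF vs DOX and 3 in D_MgHCF vs D_DXZ, and the wider list gave 20, 27 and 24 calls in the last 3. In D_MgHCF vs Unt the count was 5 as TPM (2 higher, 3 lower), 6 after quantile normalization (5 higher, 1 lower), 5 per summed reads (4 higher, 1 lower) and 5 at an unadjusted p under 0.05, against 3 as deposited. In D_DXZ vs DOX, 14 genes of the wider list had an unadjusted p under 0.05, against 0 adjusted. Leaving out each library in turn gave 3 to 6 calls among the 9 genes in D_MgHCF vs Unt, 6 to 8 in DOX vs Unt, 5 to 7 in D_DXZ vs Unt, 7 in D_MgHCF vs DOX and 6 to 8 in D_MgHCF vs D_DXZ. It turned no called direction, but Cbr3 in D_DXZ vs Unt, at 0.0091 and not called, became -0.14 without Unt replicate 1 and -0.022 without D_DXZ replicate 1.

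Over all 18 pairs, libraries with the same replicate number did not deviate together (median r = 0.03, from -0.41 to 0.42, each r across genes). Between DOX and D_DXZ these r were 0.42, 0.05 and 0.35, where unlike numbers ran from -0.45 to 0.23. Between D_MgHCF and D_DXZ they were -0.41, 0.05 and -0.13. The numbers were therefore not taken to pair the samples. With a replicate block, 0 of all genes were called in D_DXZ vs DOX. A fit with the replicate block kept 53 of 54 results on their side of the threshold, and Cbr3 in D_MgHCF vs D_DXZ, at 0.48, lost its call (limma, adjusted p = 0.0773). Changing the pseudocount to 0.1 kept 53 of 54, and testing every gene of the table kept 51, the calls lost being Abcb1a and Abcb1b in D_DXZ vs Unt and Cbr3 in D_MgHCF vs D_DXZ. Fitting only the 2 groups compared also kept 51, without the calls of Abcb1a in D_DXZ vs Unt, Rarg in D_MgHCF vs Unt and Cbr3 in D_MgHCF vs D_DXZ. Depth limits Abcb1a, with at most 17 reads a library, and Cbr3, with 51 to 213.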
